A study of Mus musculus with 11 samples.

Results

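The genes described here are 40 genes of the neuroendocrine secretory granule and the synaptic vesicle, chosen by name from a list of dense-core granule, neuropeptide and exocytosis genes, out of 35056 genes to which the deposited transcripts of the series could be summed. The list held 7 granins and related granule proteins (Resp18 included), 5 genes of prohormone processing, 3 peptide hormones and 2 granule membrane genes. It held 4 vesicle membrane genes, 3 SNAREs, 7 synaptotagmins and complexins, 7 priming and tethering genes, and 2 cytosolic enzymes that mark neuroendocrine cells. Of the 40, 38 had enough reads to be tested and 2, Calcb and Stx1a, did not.

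Dense-core granules carry peptide hormones and amines. Granins help the granule form in the trans-Golgi network, prohormone convertases and carboxypeptidase E cut the precursors inside it, and the peptides leave when calcium triggers fusion. Synaptic and synaptic-like vesicles use the same fusion machinery, in which Rab3 proteins, RIM and Munc13 bring the vesicle to the membrane, SNAREs fuse it, and synaptotagmins and complexins make the step depend on calcium. Small cell lung cancer (SCLC) is a neuroendocrine tumour, and several of these proteins are used in pathology to recognise it.

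RNA was sequenced in bulk from KP1 cells, a line grown from a mouse SCLC tumour mutant for Rb and p53. The control group was untreated KP1 cells (replicates 2 and 3, n = 2), and the irradiated group was KP1 cells given 5 Gy (replicates 1, 2 and 3, n = 3), with pellets taken at 24 h. All 5 libraries came from this single line in culture, both groups carry the same mutations, and the labels do not say whether replicates were separate cultures, so p-values measure only the spread between these libraries. A further 6 single-cell leukocyte samples of the series were not analysed here.

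The libraries held 21185956 to 31036317 estimated reads. Reads came from longer transcripts in control libraries, where the read-weighted mean length was 5463 bases (replicate 2) and 4729 bases (replicate 3), than in irradiated libraries, where it was between 3625 and 3998 bases. Over all 14106 genes tested, the median log2 fold change ran from 0.77 in the shortest of 10 equal length groups of genes to -0.78 in the longest. A second fit therefore used a transcript length offset, a smooth correction for length in each library, and its values are given beside the main ones. Insm1, a neuroendocrine transcription factor, stood at a mean of 316 TPM in control and 375 TPM in irradiated cells. Cdh1 had 27 and 2 reads in control and 0 in every irradiated library. Of 6 leukocyte markers, 1 passed the filter (Cd68, 9 to 51 reads), and Csf1r and Adgre1 had 0 to 2 reads in each library.

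The members covered the whole range of expression. On the TPM scale, a level scaled for transcript length and sequencing depth, 10 members had a mean control level over 100 TPM, 23 lay between 10 and 100 TPM, 4 between 1 and 10 TPM and 3 under 1 TPM. The highest were Cplx2, Uchl1, Chga, Ddc and Cpe, all within the top 2.79% of tested genes by mean control TPM. Summed over the 40 members, the level was 4900 and 4442 TPM in control and 4300, 4076 and 4227 TPM in irradiated libraries, or 0.408% to 0.49% of all TPM. The sum was lower in all 3 irradiated libraries. This sum was carried in part by Cplx2 and Uchl1. Without that pair it was 3237 and 3033 TPM in control and 3075, 2703 and 2951 TPM in irradiated libraries, and the groups overlapped. TPM itself shifted between the groups, since the median log2 ratio of group mean TPM (pseudocount 0.5) over all tested genes was -0.28. Over the tested members it was -0.07.

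**Figure D1:**
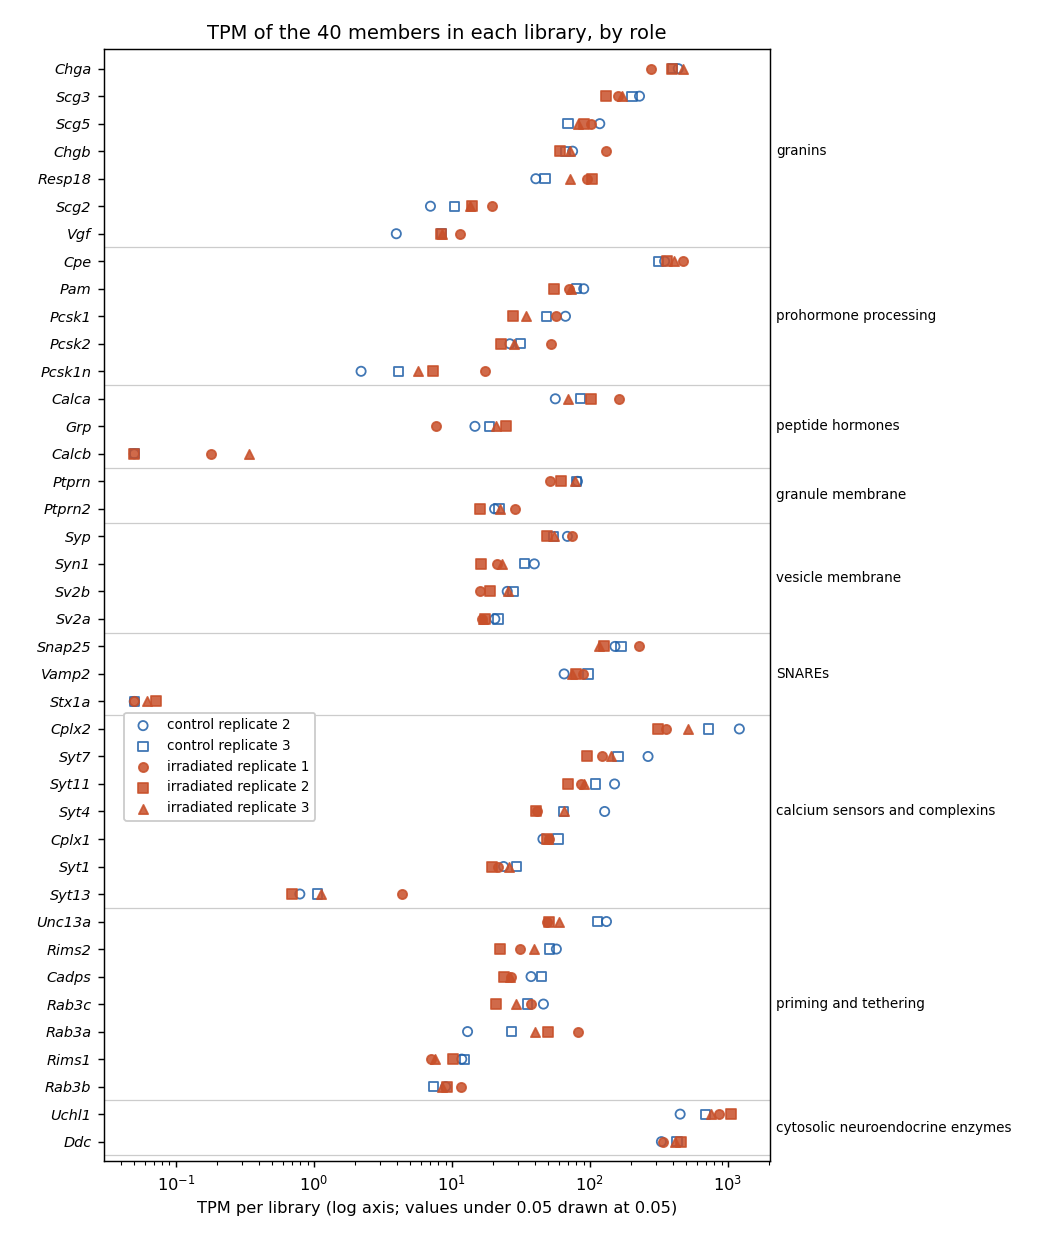
TPM of each member in each library on a log axis, grouped by role; open blue symbols are the 2 control libraries and filled red symbols the 3 irradiated libraries, and values under 0.05 are drawn at 0.05. Cplx2 is the highest member in control (1211 and 726 TPM), and Calcb and Stx1a lie at or near 0 in all 5 libraries.

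Irradiated cells were compared with control cells on reads summed to genes, and changes are log2 fold changes. They were tested in edgeR by quasi-likelihood, and p-values were adjusted over all 14106 genes by the Benjamini-Hochberg method. In that fit 8 of 38 tested members were higher at an adjusted p under 0.05 (21.1%), and 12.7% of all tested genes were. The 8 were Pcsk1n, Rab3a, Resp18, Calca, Uchl1, Scg2, Cpe and Syp. Lower were 4 members (10.5%), Cplx2, Unc13a, Rims2 and Syn1, beside 13% of all tested genes. Past a log2 change of 1.5 there were 2 higher members, Pcsk1n and Rab3a, where 1.63% of all genes were that far up, and 0 lower members, where 1.9% of all genes were that far down. The lowest member value was -1.02, and DESeq2 also found 0 members past -1.5. The median log2 fold change was 0.26 over the tested members and 0.02 over all genes.

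The number of calls changed when single libraries were left out. The share of all genes called was not taken for those fits, so their counts describe the members alone. Without control replicate 2, 0 members passed in either direction by edgeR, with log2 fold changes of the 8 higher members between 0.53 and 1.62 and of the 4 lower members between -0.59 and -0.41, and with 8 higher and 1 lower member at an unadjusted p under 0.05. Control replicate 2 gave the lowest value in CPM (reads scaled to library size, not to length) of all 5 libraries for 17 of the 38 members. Without irradiated replicate 1, only Rab3a, Resp18 and Unc13a passed, and this library gave the highest CPM for 17 members. The calls lost there kept log2 fold changes of 0.53 to 1.34 in the higher members and -0.95 to -0.61 in the lower ones, and those of Uchl1 (1.15), Syn1 (-0.61) and Rims2 (-0.67) were no smaller than with all libraries. The plot of CPM for the called members shows both features. On CPM scaled by library (TMM), 13 members had all irradiated libraries above both controls (34.2%) and 8 had all below (21.1%), while 30.1% and 29.3% of all tested genes did so. On the TPM scale the balance was the other way, with 6 members above both controls and 12 below, beside 15.4% and 42.7% of all tested genes.

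**Figure D2:**
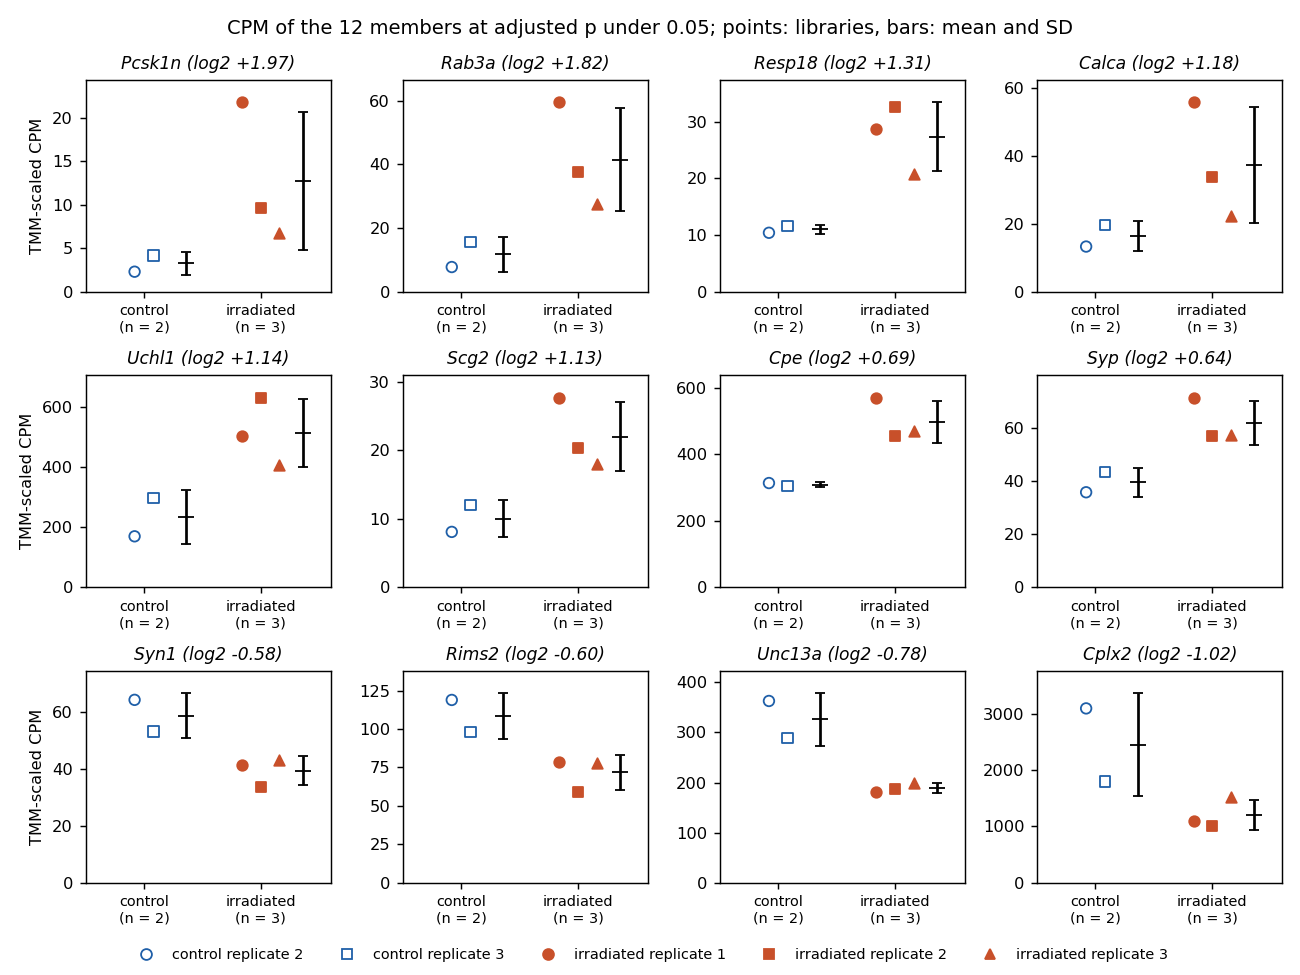
CPM, scaled by TMM factors, of the 12 members at an adjusted p under 0.05, with each library as a point and the mean and SD of each group as a bar beside it. The groups do not overlap in any of the 12 panels, and irradiated replicate 1 is the highest library for Pcsk1n (21.8 CPM), Rab3a (59.5 CPM) and Calca (55.7 CPM).

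With the transcript length offset, 3 members were higher (Rab3a, Scg2 and Resp18; 7.89%) and 0 lower, where 4.25% and 3.64% of all genes were called, and at an unadjusted p under 0.05 there were 11 higher and 4 lower members in edgeR. The members called higher had transcripts of 746 to 2409 bases and those called lower of 3230 to 5370 bases. Across the 38 tested members, Spearman's rho of log2 fold change with transcript length was -0.64, as a description over genes that share the same 5 libraries. It was -0.54 over all tested genes and -0.11 over the members with the offset. Compared with the median of all genes in the same length group, 24 members lay above and 12 below, with a median difference of 0.21 on the log2 scale. Pcsk1n lay 1.85 above its length group, Syt13 1.70, Rab3a 1.27 and Scg2 1.02. Unc13a had the same value as the median of its length group, -0.78, and Cplx2 lay lower, at -1.02 against -0.40.

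**Figure D3:**
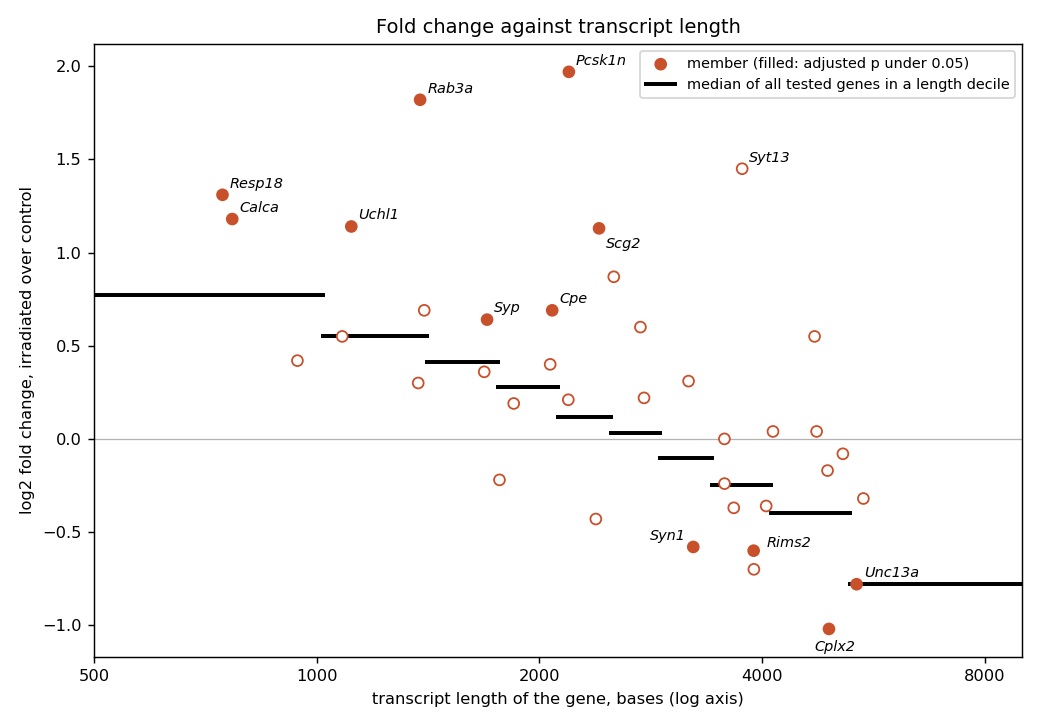
Log2 fold change of each tested member against transcript length (log axis), with black bars for the median of all tested genes in each of 10 length groups. The bars fall from 0.77 to -0.78; Pcsk1n, Syt13, Rab3a and Scg2 lie furthest above them.

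**Figure D4:**
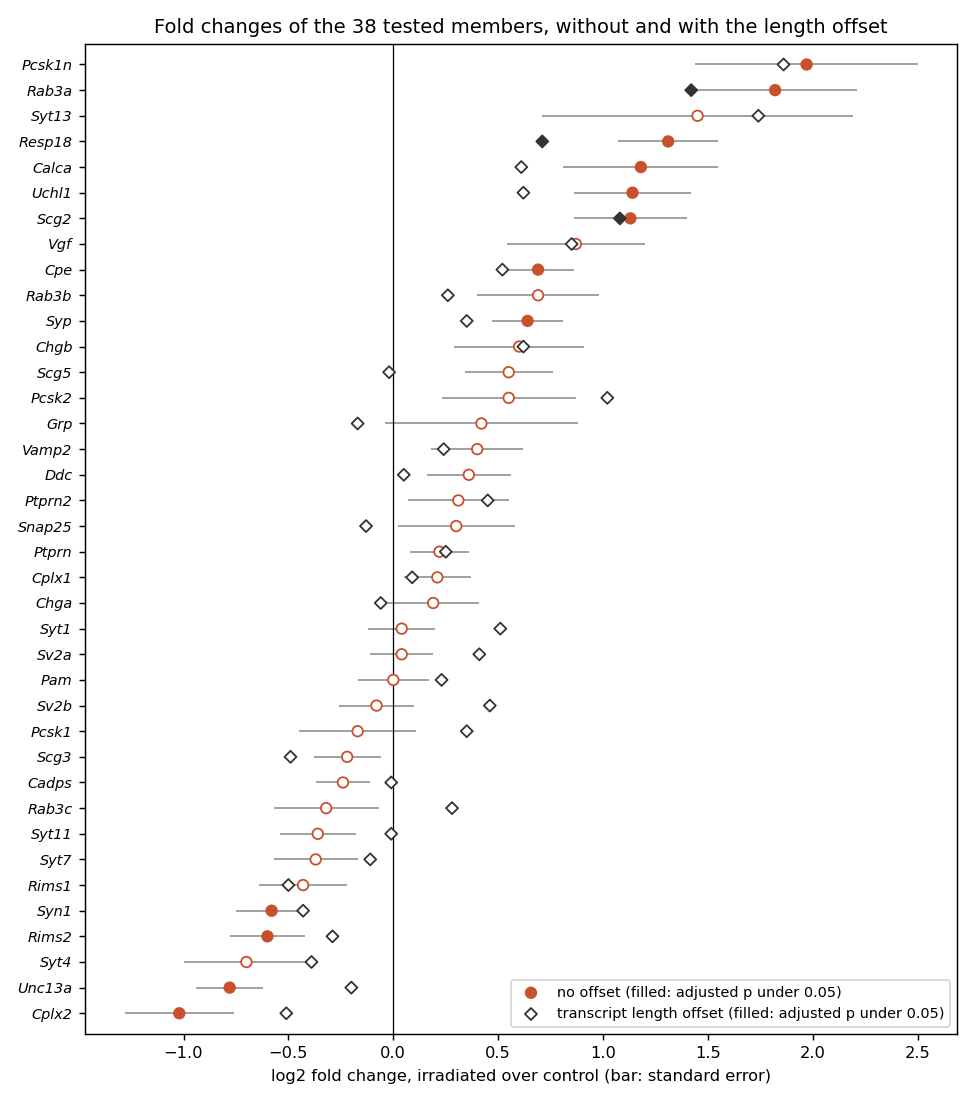
Log2 fold change of the 38 tested members without an offset (red circles, bar: standard error) and with the transcript length offset (dark diamonds), filled where the adjusted p is under 0.05. Rab3a, Scg2 and Resp18 are filled in both fits, and no member below 0 is filled with the offset.

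Granins are the acidic proteins that condense in the granule and are released with its hormones. Of the 7 genes listed in this role, where Resp18 was counted with the granins, 2 were higher, Scg2 and Resp18, and 0 lower. That is 28.6% higher, beside 12.7% higher and 13% lower over all tested genes, and a share of 7 genes is coarse. The median log2 fold change of the 7 was 0.60 (0.62 with the length offset), beside 0.02 (0.04) over all tested genes. Scg2, secretogranin II (chr1:79434669-79440120, GRCm38), had 8.09 and 12 CPM in control replicates 2 and 3 and 27.7, 20.4 and 18 CPM in irradiated replicates 1, 2 and 3. Every irradiated library was above both controls, by a log2 fold change of 1.13 (SE 0.27, adjusted p = 0.0212, edgeR), or 2.2-fold. The offset left it nearly as large, at 1.08 (adjusted p = 0.0427). In TPM it also did not overlap, with 7 and 10.4 in control and 19.6, 14 and 13.5 in irradiated libraries.

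Resp18, a regulated endocrine-specific protein of the granule lumen (chr1:75272199-75278415), had 10.4 and 11.6 CPM in control and 28.7, 32.6 and 20.8 CPM in irradiated libraries. Its log2 fold change was 1.31 (SE 0.24, adjusted p = 0.0104, edgeR) and 0.71 with the offset (adjusted p = 0.0488). The control pair lay close together and below all 3 irradiated libraries. The transcript is short, 746 bases, and genes of that length had a median of 0.77. Vgf, the precursor of several neuropeptides, had 4.94 and 10.2 CPM in control and 16.2, 13.1 and 12.3 CPM in irradiated libraries, with a log2 fold change of 0.87 (adjusted p = 0.083, edgeR). DESeq2 called it, and edgeR did not. Scg5, the chaperone 7B2 of the convertase PC2, had a log2 fold change of 0.55 (adjusted p = 0.0822, edgeR), which became -0.02 with the offset.

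Chga, chromogranin A, was the highest granin and the diagnostic marker of neuroendocrine tumours, and it did not pass the test. Its level was 437 and 396 TPM in control and 278, 391 and 475 TPM in irradiated libraries. The irradiated libraries lay on both sides of the controls, with a log2 fold change of 0.19 (SE 0.22, adjusted p = 0.541, edgeR) that was -0.06 with the offset. Chgb, its relative chromogranin B, had 101 and 87.8 CPM in control and 215, 103 and 111 CPM in irradiated libraries (log2 fold change 0.60, adjusted p = 0.179). The irradiated replicate 1 value stood apart from the other 4. Scg3, which binds Chga to the granule membrane, had 229 and 202 TPM in control and 159, 131 and 172 TPM in irradiated libraries. All irradiated values were lower on that scale, and the log2 fold change on reads was -0.22 (adjusted p = 0.336).

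Promoter sequence is shown for the members that hold the 8-base palindrome TGACGTCA, known as the cAMP response element, since several granule genes carry it near the start. RefSeq promoters (GRCm38.p6) were found for 30 of the 40 members, and the 250 bases before each start were read. The element, searched on both strands, was in 4 of the 30, Chgb, Scg2, Pcsk1 and Syn1, and in 1.55% of 32851 promoters of the same length. In Chgb, Scg2 and Pcsk1 its first base lay 72, 68 and 78 bases before the RefSeq start, and in Syn1 159 bases before it. Capitals mark the element.
Chgb, chr2:132781392-132781641, plus strand: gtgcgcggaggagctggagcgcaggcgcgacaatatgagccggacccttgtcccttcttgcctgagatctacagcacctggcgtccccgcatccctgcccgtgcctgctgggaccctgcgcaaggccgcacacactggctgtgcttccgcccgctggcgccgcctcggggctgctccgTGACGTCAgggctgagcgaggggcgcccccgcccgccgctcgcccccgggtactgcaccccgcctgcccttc
Scg2, chr1:79440027-79440276, minus strand: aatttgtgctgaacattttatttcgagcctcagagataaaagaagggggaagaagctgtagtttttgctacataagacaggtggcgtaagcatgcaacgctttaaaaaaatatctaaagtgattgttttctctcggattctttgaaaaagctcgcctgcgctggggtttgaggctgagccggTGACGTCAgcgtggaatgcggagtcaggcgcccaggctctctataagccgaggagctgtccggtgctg
Pcsk1, chr13:75089607-75089856, plus strand: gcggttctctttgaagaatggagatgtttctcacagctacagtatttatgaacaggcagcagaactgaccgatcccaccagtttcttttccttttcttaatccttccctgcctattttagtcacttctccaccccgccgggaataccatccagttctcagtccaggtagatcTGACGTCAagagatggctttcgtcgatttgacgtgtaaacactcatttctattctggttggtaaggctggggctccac
Syn1, chrX:20920919-20921168, minus strand: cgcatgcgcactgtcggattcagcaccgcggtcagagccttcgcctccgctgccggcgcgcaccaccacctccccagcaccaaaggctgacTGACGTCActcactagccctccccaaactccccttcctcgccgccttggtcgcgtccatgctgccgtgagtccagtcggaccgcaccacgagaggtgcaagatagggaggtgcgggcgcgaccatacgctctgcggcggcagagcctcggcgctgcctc
The start used for Chgb lay 364 bases downstream of that of its most abundant coding transcript, and those of the other 3 lay 0 to 31 bases away. The Chgb window and its element thus lie within the span of that transcript, not before its start. For Scg2 the comparison was with Scg2-202 alone. The annotated span of the gene reaches to 79440120, inside the window, and the Scg2 element falls within that span. The coding transcript Scg2-201, whose start was not compared, held 31.9% to 63% of the gene's TPM. The 4 genes did not move together. Scg2 was higher (log2 fold change 1.13), Syn1 was lower (-0.58), and Chgb (0.60) and Pcsk1 (-0.17) did not pass the test.

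The E-box CAGCTG was in 8 of the 30 promoters and in 13% of all. The 8 were Resp18, Chga, Pcsk2, Sv2a, Stx1a, Cplx1, Cplx2 and Rab3c, of which Resp18 was higher and Cplx2 lower. For Cplx2 the start read lay 68793 bases from that of the transcript measured, so its window is not the promoter of that transcript. The Resp18 sequence follows with the E-box in capitals, whose first base lies 73 bases before the start.
Resp18, chr1:75278416-75278665, minus strand: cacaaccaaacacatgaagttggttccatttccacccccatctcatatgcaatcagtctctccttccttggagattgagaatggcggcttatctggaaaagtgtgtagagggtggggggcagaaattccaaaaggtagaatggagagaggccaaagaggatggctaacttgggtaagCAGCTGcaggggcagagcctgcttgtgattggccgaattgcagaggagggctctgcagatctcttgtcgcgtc
The E-box CAGGTG was in 4 of 30 promoters (17.2% of all), GGACAG in 7 (18.7%), ACGTG in 6 (16.6%), TATAAA in 2 (12.4%) and TTCAGCACC in 1, that of Syn1 (0.301%). No motif searched was in the windows of Rab3a, Pcsk1n, Calca or Uchl1, which says only that these letters are not there. No promoter entry was matched for Vgf, Cpe, Grp, Calcb, Snap25, Vamp2, Syt4, Syt7, Syt13 and Rims2.

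Prohormone processing showed its largest difference in Pcsk1n, proSAAS, an inhibitor of the convertase PC1/3 encoded by Pcsk1. Pcsk1n (chrX:7919822-7924410) had 2.31 and 4.2 CPM in control and 21.8, 9.68 and 6.81 CPM in irradiated libraries. All 3 irradiated values were above both controls, but they spread over a range wider than the gap between the groups. The log2 fold change was 1.97 (SE 0.53, adjusted p = 0.0302, edgeR), or 3.92-fold, and 1.86 with the offset (adjusted p = 0.0625). Without irradiated replicate 1 it was 1.34 (adjusted p = 0.0631). Reads were few, 66 and 112 in control and 548, 212 and 187 in irradiated libraries. The inhibitor's target showed no such difference, since Pcsk1 had 66.6 and 48.5 TPM in control and 56.9, 27.9 and 34.4 TPM in irradiated libraries (log2 fold change -0.17, adjusted p = 0.696). The difference between these genes was not itself tested.

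Cpe, carboxypeptidase E (chr8:64592542-64693054), trims basic residues from cut hormones. It was the most abundant processing gene, with 313 and 304 CPM in control and 569, 453 and 469 CPM in irradiated libraries. The control pair was close together and well below the irradiated values. The log2 fold change was 0.69 (SE 0.17, adjusted p = 0.0225, edgeR) and 0.52 with the offset (adjusted p = 0.071). In TPM the groups were also apart, at 348 and 315 against 475, 360 and 410. Pcsk2, the convertase PC2, had 63.9 and 73.9 CPM in control and 153, 70.1 and 78.8 CPM in irradiated libraries, with only irradiated replicate 1 far above the controls (log2 fold change 0.55, adjusted p = 0.227). Pam, which amidates peptide ends, had a log2 fold change of 0.00 (SE 0.17).

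Peptide hormones were represented by Calca and Grp, and Calcb had 0 reads in both controls and 2, 0 and 4 reads in the irradiated libraries. Calca (chr7:114631478-114636357) encodes calcitonin and, by alternative splicing, calcitonin gene-related peptide (CGRP). It had 13.3 and 19.6 CPM in control and 55.7, 33.8 and 22.4 CPM in irradiated libraries. The groups did not overlap, but irradiated replicate 3 was close to control replicate 3. The log2 fold change was 1.18 (SE 0.37, adjusted p = 0.0474, edgeR) and 0.61 with the offset (adjusted p = 0.251). In TPM the groups overlapped, with 56.2 and 85.9 in control and 163, 102 and 69.7 in irradiated libraries. Grp, gastrin-releasing peptide, a growth factor of SCLC cells, had 14.7 and 18.8 TPM in control and 7.67, 24.5 and 20.8 TPM in irradiated libraries, and its log2 fold change of 0.42 (adjusted p = 0.53) became -0.17 with the offset.

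The Calca transcripts were sorted by whether their translation in any frame held the calcitonin or the CGRP sequence. CGRP transcripts (3 of 7) held 72.9% and 70.8% of the gene's TPM in control and 90.7%, 82.5% and 66.3% in irradiated libraries. Counted among them was Calca-203, annotated as a retained intron, with 12.4% in control replicate 3 and 0% to 1.77% in the other libraries. Calcitonin transcripts (2 of 7) held 15.1% and 16.9% in control and 9.3%, 14.7% and 17.8% in irradiated libraries. The CGRP form was the main one in every library, and the shares of the groups overlapped. Reads assigned to CGRP transcripts numbered 294 and 388 in control and 1264, 615 and 465 in irradiated libraries, and those assigned to calcitonin transcripts 68 and 108 against 135, 119 and 116. Shares of short, overlapping transcripts are estimates of the quantifier, and no test was made of them.

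**Figure D5:**
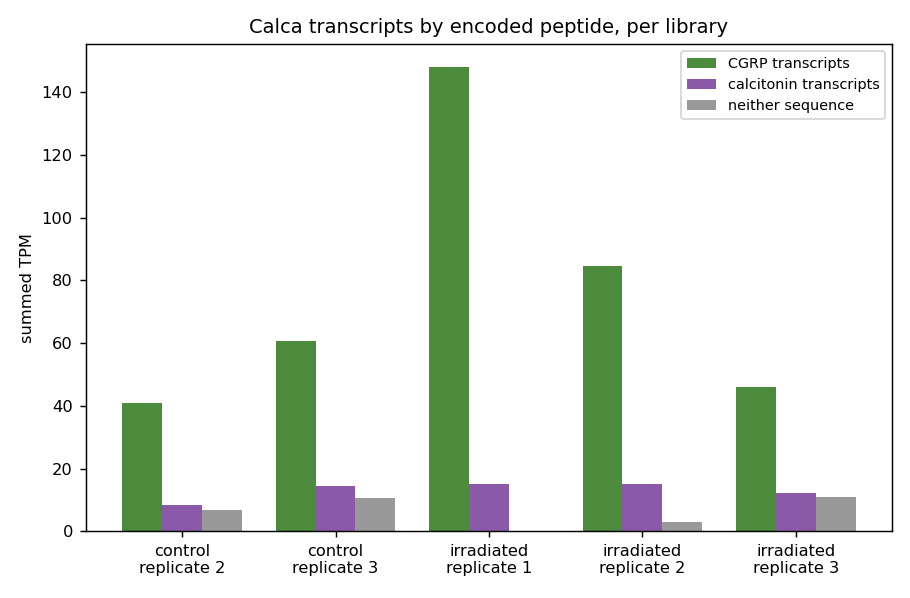
Summed TPM of Calca transcripts that hold the CGRP sequence, the calcitonin sequence or neither, in each of the 5 libraries. CGRP transcripts are the tallest bar in every library, from 40.9 TPM in control replicate 2 to 148 TPM in irradiated replicate 1.

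The granule membrane genes Ptprn and Ptprn2, which encode the receptor phosphatase-like proteins IA-2 and IA-2beta, did not pass the test, with log2 fold changes of 0.22 (SE 0.14) and 0.31 (SE 0.24). Ptprn had 93.9 and 102 CPM in control and 109, 114 and 119 CPM in irradiated libraries, slightly above both controls, and on the TPM scale 81.3 and 80.3 in control and 51.3, 62.3 and 78.2 in irradiated libraries, below both. With Salmon's effective length as offset its log2 fold change was 0.01. For Ptprn2, 55.4% and 51.1% of TPM in control and 43%, 46.1% and 39.4% in irradiated libraries came from Ptprn2-204, a transcript annotated as a target of nonsense-mediated decay. That share was lower in all 3 irradiated libraries, and it was not tested.

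Vesicle membrane genes went both ways. Syp, synaptophysin (chrX:7638471-7653256), a main marker of neuroendocrine tumours, had 35.7 and 43.4 CPM in control and 71.2, 56.7 and 57.1 CPM in irradiated libraries. The log2 fold change was 0.64 (SE 0.17, adjusted p = 0.0315, edgeR) and 0.35 with the offset (adjusted p = 0.176). Its TPM overlapped, at 68.8 and 54.5 in control and 73.9, 49.2 and 55 in irradiated libraries. In TPM, a non-coding transcript of 433 bases, Syp-206, took 35.5% of the gene in control replicate 2, 0% in control replicate 3 and 0% to 27.2% in the irradiated libraries. That 35.5% rested on 58.7 estimated reads, where the coding transcript Syp-201 had 885 in the same library. Syn1, synapsin I (chrX:20860511-20921004), which tethers synaptic vesicles to the cytoskeleton, had 64.1 and 53 CPM in control and 41.3, 33.4 and 43.1 CPM in irradiated libraries. All irradiated values were lower, by a log2 fold change of -0.58 (SE 0.17, adjusted p = 0.0416, edgeR), and -0.43 with the offset (adjusted p = 0.112). Sv2a and Sv2b, vesicle glycoproteins, had log2 fold changes of 0.04 and -0.08, which were 0.41 and 0.46 with the offset, and neither passed in either fit.

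Among the SNAREs, Snap25 had 152 and 168 TPM in control and 228, 127 and 116 TPM in irradiated libraries, and Vamp2, synaptobrevin 2, had 65.1 and 96.9 TPM against 89.3, 78.8 and 74.3 TPM. Neither passed the test, with log2 fold changes of 0.30 and 0.40, and their groups overlapped. Stx1a, the third SNARE of the synaptic complex, had 0 reads in both controls and 0, 2 and 2 reads in the irradiated libraries.

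Complexin 2 was the member with the most transcripts in control cells. Complexins clamp assembled SNAREs until calcium arrives. Cplx2 (chr13:54371349-54383917) had 3092 and 1798 CPM in control and 1098, 1012 and 1512 CPM in irradiated libraries. The controls differed from each other more than control replicate 3 did from irradiated replicate 3. The log2 fold change was -1.02 (SE 0.26, adjusted p = 0.027, edgeR), or 2.03-fold lower in irradiated cells, and -0.51 with the offset (adjusted p = 0.145). Without control replicate 2 it was -0.55 (adjusted p = 0.194). Cplx1, its relative, had a log2 fold change of 0.21 (SE 0.16) and did not pass.

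None of the 5 synaptotagmins passed the test in edgeR. Syt4, Syt7 and Syt11 had log2 fold changes of -0.70, -0.37 and -0.36, and Syt1, the fast calcium sensor of synaptic release, had 0.04 (SE 0.16). Syt4 rested on control replicate 2, with 255 CPM there, 124 CPM in control replicate 3 and 99.5, 102 and 148 CPM in irradiated libraries. Syt13 had a log2 fold change of 1.45 (SE 0.74, adjusted p = 0.177), set by irradiated replicate 1. It had 252 reads there, 43 and 52 reads in control, and 37 and 68 reads in the other irradiated libraries.

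Priming and tethering genes were called in both directions. Rab3a (chr8:70754679-70758677) encodes the small GTPase most abundant on synaptic vesicles. It had 7.77 and 15.7 CPM in control and 59.5, 37.6 and 27.6 CPM in irradiated libraries. Every irradiated value was above both controls, by a log2 fold change of 1.82 (SE 0.39, adjusted p = 0.0155, edgeR), or 3.54-fold, and 1.42 with the offset (adjusted p = 0.0481). Over the left-out libraries, without the offset, it ran from 1.42 (without control replicate 2) to 2.44 (without control replicate 3). Without irradiated replicate 1 it was 1.47. The TPM values, 13 and 27 in control and 82.6, 49.8 and 39.8 in irradiated libraries, did not overlap either. Its relatives differed in level and in change. Rab3c, at 46.1 and 35.4 TPM in control and 37.6, 20.9 and 29.2 TPM in irradiated libraries, had a log2 fold change of -0.32 (adjusted p = 0.368), and Rab3b, at 7.32 to 11.7 TPM in all libraries, had 0.69 (adjusted p = 0.108). Rab3c was the more abundant of Rab3a and Rab3c in control libraries and Rab3a in irradiated libraries, on the TPM scale.

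Unc13a, Munc13-1 (chr8:71624417-71671757), prepares docked vesicles for fusion. It had 363 and 289 CPM in control and 181, 187 and 200 CPM in irradiated libraries. The irradiated values lay close together and below both controls, by a log2 fold change of -0.78 (SE 0.16, adjusted p = 0.013, edgeR), which was -0.20 with the offset (adjusted p = 0.307). Retained-intron transcripts Unc13a-207 and Unc13a-206 took 4.02% to 18.1% and 12.2% to 16% of the gene's TPM. They had 27.6 to 248 and 78.4 to 167 estimated reads per library, where the gene had 4088 to 10367. Rims2, a RIM protein of the active zone (chr15:39198261-39684372), had 119 and 98.1 CPM in control and 78.7, 58.8 and 77.8 CPM in irradiated libraries. It was lower by a log2 fold change of -0.60 (SE 0.18, adjusted p = 0.0418, edgeR), or -0.29 with the offset (adjusted p = 0.243). Rims1, with 9.68 to 15.4 CPM, and Cadps, the granule priming factor CAPS, with 58.1 to 70.2 CPM, had lower CPM in every irradiated library but did not pass (log2 fold changes -0.43 and -0.24).

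The cytosolic neuroendocrine enzymes were abundant. Uchl1, the ubiquitin hydrolase PGP9.5 (chr5:66676091-66687234), had 169 and 296 CPM in control and 501, 629 and 407 CPM in irradiated libraries. The groups did not overlap, and the log2 fold change was 1.14 (SE 0.28, adjusted p = 0.0229, edgeR), or 0.62 with the offset (adjusted p = 0.0738). Its TPM were 451 and 684 in control and 867, 1060 and 758 in irradiated libraries. A retained-intron transcript of 228 bases, Uchl1-204, took 23.1% of TPM in control replicate 2 and 0.745% to 4.57% in the other libraries. That 23.1% rested on 59 estimated reads, where the coding transcript Uchl1-201 had 4722 in the same library. Ddc, aromatic amino acid decarboxylase (chr11:11814101-11898144), had 330 and 428 TPM in control and 337, 458 and 417 TPM in irradiated libraries, with overlap between the groups and a log2 fold change of 0.36 (SE 0.20, adjusted p = 0.213, edgeR).

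Other genes of the pathway, 109 listed by role, gave 78 that could be tested, of which 7 were higher (8.97%) and 10 lower (12.8%), beside 12.7% and 13% of all genes, with a median log2 fold change of 0.02. Snap47, a SNAP-25 relative, had 824 and 868 reads in control and 1511, 1257 and 1535 reads in irradiated libraries, with a log2 fold change of 0.91 (adjusted p = 0.00919, edgeR). Rab3d, a Rab3 of secretory cells, had a log2 fold change of 0.54 (adjusted p = 0.0328). These were the 2 that also passed with the offset, at 0.63 and 0.71. The other higher genes were Napa, the SNARE-recycling protein alpha-SNAP (0.83), the synaptogyrins Syngr2 (0.85) and Syngr3 (0.70), Syt17 (0.70) and Rph3al, a Rab effector (0.94). On the TPM scale Napa went the other way, at 166 and 167 in control and 112, 148 and 144 in irradiated libraries. With Salmon's effective length as offset its log2 fold change was 0.05. Among the lower were the active zone scaffolds Bsn (-1.18) and Erc1 (-0.90), Mycbp2 (-1.36), Unc13b (-0.48), the SNARE regulator Stxbp5 (-0.63), Syt14 (-0.63), the vesicular monoamine transporter Slc18a2 (-1.20), the sorting receptor Sort1 (-0.67) and carboxypeptidase D, Cpd (-0.69). None of the 10 passed with the offset, where Bsn stood at 0.13 and Cpd at 0.15. Of 21 other peptide hormone genes, 5 could be tested and 0 passed in edgeR, with 2 at an unadjusted p under 0.05, and Sst, Vip, Nmu and Nppb had 0 reads in all 5 libraries.

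By role, the sum of TPM differed most in the synaptotagmins and complexins, with 1826 and 1150 in control and 685, 587 and 892 in irradiated libraries. Cplx2 carried most of that difference, and without it the role summed to 614 and 424 TPM in control and 327, 274 and 375 TPM in irradiated libraries. The priming and tethering genes summed to 307 and 291 TPM against 246, 187 and 211 TPM. These sums were lower in every irradiated library, while the median of all genes was also lower on this scale. Granins, with Resp18 counted among them, summed to 911 and 801 TPM in control and 798, 798 and 894 TPM in irradiated libraries, and the groups overlapped. The cytosolic enzymes summed to 781 and 1112 TPM in control and 1203, 1518 and 1175 TPM in irradiated libraries, above both controls, but without Uchl1 the groups overlapped (330 and 428 against 337, 458 and 417 TPM). In bulk RNA, fewer cells of a type and less RNA per cell cannot be told apart.

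Some members share exonic bases with a gene on the opposite strand, and the strand setting of the counting is not given in the sources used here, so such reads cannot be told apart. Unc13a shares 495 exonic bases with Colgalt1, which had 3052 to 4164 reads, Pcsk1n 135 bases with Eras and Rab3a 29 bases with Mpv17l2. Syp shares 875 bases with Gm14703 and Uchl1 295 bases with Uchl1os, neither of them among the quantified genes. No member had another gene at 95% identity or more over 80% of its most abundant transcript.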

How the data were processed

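Bulk RNA sequencing libraries of KP1 cells were compared, 2 control and 3 irradiated, and groups and replicate numbers came from the sample labels. Per the submitters' processing notes, the authors quantified reads with Salmon 0.8.2 on mm10 and used DESeq2 1.22.2. The deposited files give, for each transcript, estimated counts (estimated count of reads, not whole numbers) and TPM, which the authors' Salmon run computed from those reads and the effective transcript length. Of 113116 transcripts, 112762 matched GENCODE M21 and were summed to 35056 genes, with counts rounded to whole numbers. Genes were filtered by filterByExpr and tested in edgeR 4.0.16 (R 4.3.3) with TMM factors, and DESeq2 1.42.0 was an alternative. The standard error is the log2 fold change divided by the square root of the quasi-F statistic. Libraries held 21185956 to 31036317 reads, and with this few libraries the spread between them limits precision. The length offset was a spline of 5 degrees of freedom per library. Other alternatives were size factors, no filter, effective length, a replicate block, and each library left out. Scripts were tested on simulated data. Sequences came from RefSeq and transcript translation used Biopython 1.88, and near-identical transcripts were searched with blastn 2.17.0.

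The members and lists were chosen with earlier results of these data known. All 40 members are accounted for. Full statistics are given for members at an adjusted p under 0.05 and the 5 highest in mean control TPM, the others have their range or fold change, and other pathway genes are named at an adjusted p under 0.05, at most 5 per direction and role. The promoters and isoforms shown were picked after their values were seen. Vamp7, a listed pathway gene, and the single-cell samples were not analysed here. Some listed genes are not reported here. Exact permutation of 2 against 3 libraries cannot go below p = 0.1, so no single value was tested that way.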

Additional observations from a re-analysis of the deposited data

How the results depend on the processing

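The counts of members called did not change under other size factors (8 higher, 4 lower) and nearly so under DESeq2 (9 and 4). Without the filter on low counts 13 were higher and 5 lower, and with effective length 6 and 2. The share of all tested genes called was taken only for the main fit and the transcript length offset. Counts of members under the other settings, here and below, therefore cannot be set against such a share. The transcript length offset gave 3 and 0, with 0 past log2 1.5, and the cause of the length trend was not tested. Leaving out each library in turn gave 0 to 10 higher and 0 to 6 lower members, 0 to 5 higher past log2 1.5, and a median log2 fold change of 0.15 to 0.37. The low end came without control replicate 2, or for the median without irradiated replicate 1, and the high end without control replicate 3. With 1 control left, that library is assumed to vary like the irradiated ones.

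Replicate numbers 2 and 3 occur in both groups, but the labels do not say that a number marks a shared batch. The difference between replicates 2 and 3 of control correlated with that of irradiated libraries at -0.1958 over genes (log2 CPM). Replicate 1 occurs only in the irradiated group, so a block gives that library its own term and takes no group difference from it. Such a fit is therefore close to leaving out irradiated replicate 1, where the median was also 0.15. With the replicate block, 2 members were higher, 0 lower and 1 past log2 1.5, at a median of 0.15. The calls lost with the block kept log2 fold changes of 0.53 to 1.37 (higher) and -0.93 to -0.62 (lower, Unc13a at -0.74 included). The block with the length offset gave 0, 0 and 0 at 0.16. A crossed pairing, chosen after the data were seen, gave 12 higher and 9 lower members and 1 past log2 1.5.

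No called member changed sign under any of these settings. Signs changed for members that had not passed the test, near 0 in most. With the length offset these were Chga (-0.06), Scg5 (-0.02), Pcsk1 (0.35), Grp (-0.17), Sv2b (0.46), Snap25 (-0.13) and Rab3c (0.28). Pam turned to -0.01 with other size factors, -0.02 with effective length and -0.07 with the replicate block. With the block, Sv2b was 0.07 and Snap25 -0.06, and with block and length offset Scg5 was -0.08, Sv2b 0.59 and Snap25 -0.50. Over the left-out libraries the values ran from -0.06 to 0.12 for Pam, -0.52 to 0.08 for Pcsk1, -0.05 to 0.51 for Snap25, -0.03 to 0.16 for Sv2a, -0.19 to 0.07 for Sv2b and -0.06 to 0.20 for Syt1. Over protein-coding transcripts alone, 13 of the 80 group means of TPM moved by more than the SD between libraries, among them Ptprn2 in control (9.08 TPM) and Unc13a in control (90.6 TPM).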
